A study of Homo sapiens with 9 samples.

Results

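Kinases that phosphorylate the splicing machinery were followed in MOLM-13, a human acute myeloid leukaemia cell line with a KMT2A rearrangement, in which the nuclear RNA-binding protein BCLAF1 was knocked down or precipitated together with bound RNA. The group consisted of 10 genes, chosen by symbol from the 56541 genes of the count table: CLK1, CLK2, CLK3, CLK4, SRPK1, SRPK2, PRPF4B, DYRK1A, CDK12 and CDK13. All 10 were found, and all 10 passed the filter on low counts in both comparisons. No measured value entered their choice by symbol, but they were picked with earlier results of these libraries known.

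There were 3 groups of 3 libraries. RNA-seq was made from cells with a control hairpin (shCONTROL) and from cells with a hairpin against BCLAF1 (shBCLAF1). The RIP libraries (RNA immunoprecipitation) held RNA that came down with BCLAF1 from shCONTROL cells, of which more were used per sample than for RNA-seq. Every group, controls included, had received doxycycline at 200 ng/µL for 4 days, and all samples carried the same batch label. Only this cell line was used, the labels do not state how many hairpins or clones stand behind each name, and no mock precipitation is among the 9 libraries, so the RIP was set against total RNA. The labels do not say that replicates came from separate cultures, so p-values measure the spread between these samples, which may be technical.

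SR proteins are splicing factors whose arginine- and serine-rich tails must be phosphorylated to enter the nucleus and to assemble on pre-mRNA. The SRPK kinases add phosphates in the cytoplasm, which lets the importin TNPO3 carry SR proteins inward, and the nuclear CLK kinases add more and release SR proteins from nuclear speckles. PRPF4B phosphorylates components of the spliceosome as it is activated, DYRK1A phosphorylates splicing factors and the LIN52 subunit of the DREAM repressor complex, and CDK12 and CDK13, each bound to cyclin K, phosphorylate the tail of RNA polymerase II. CLK1 and CLK4 transcripts are known for detained introns, introns kept in otherwise spliced nuclear RNA and removed on demand. BCLAF1 itself carries an arginine- and serine-rich domain. The table gives a single value per gene, so spliced and intron-containing RNA were not told apart.

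Total estimated counts ran from 25819144 to 36635268 per library. Expression is given as CPM, a count divided by the TMM-scaled total of its library (all 9 libraries scaled together), while fold changes come from a separate fit of the 6 libraries of each comparison. Transcript lengths were not used, so levels are compared between samples and not between genes. All 8 myeloid leukaemia markers were detected, with a summed level of 1120 to 1205 CPM in the RNA-seq libraries and 1530 to 1600 in the RIP. CD3E, CD8A, MS4A1, HBB, EPCAM, CDH1, COL1A1 and COL3A1, markers of other lineages, were at 0 in all 9 libraries. PECAM1, an endothelial marker that myeloid cells also make, was at 182 to 194 CPM in shCONTROL, 213 to 256 CPM in shBCLAF1 and 421 to 662 CPM in the RIP, and its part in the kinase values was not tested. BCLAF1 measured 325, 328 and 312 CPM in shCONTROL and 115, 125 and 99.9 CPM in shBCLAF1, a log2 fold change of -1.50 (SE 0.085, edgeR adjusted p 2.06e-04). In the RIP it measured 1147, 1059 and 1033 CPM.

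On the GRCh38 assembly (hg38, the build named in the submitters' processing notes), the genes differ widely in span. CLK1 (chr2:200853009-200864658) and CLK2 (chr1:155262868-155273504) span 11.65 kb and 10.6 kb. CLK3 (chr15:74608372-74630201) spans 21.8 kb and CLK4 (chr5:178602664-178627050) spans 24.4 kb. SRPK1 (chr6:35832966-35921098) covers 88.1 kb and SRPK2 (chr7:105114740-105399357) covers 284.6 kb. PRPF4B (chr6:4021300-4064983, listed as PRP4K in RefSeq) spans 43.7 kb. DYRK1A (chr21:37365573-37526358) spans 160.8 kb, CDK12 (chr17:39461486-39567559) 106.1 kb and CDK13 (chr7:39950256-40099580) 149.3 kb.

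The promoters of the related pairs CLK1 and CLK4 and CDK12 and CDK13 are shown. In these pairs the balance of counts differed from shCONTROL without overlap in both shBCLAF1 and the RIP, as given further on. The pairs CLK2 with CLK3 and SRPK2 with SRPK1 differed without overlap in shBCLAF1 but not in the RIP. The pairs were chosen after the values were seen, and a link between promoter letters and levels was not tested. Each line holds the 120 bases before the outermost RefSeq transcript start (GRCh38.p14), on the gene's own strand, with capitals at matches to any of 5 searched motifs on either strand. CLK1 and CLK4 are on the minus strand, at chr2:200864659-200864778 and chr5:178627051-178627170. CDK12 and CDK13 are on the plus strand, at chr17:39461366-39461485 and chr7:39950136-39950255.
CLK1: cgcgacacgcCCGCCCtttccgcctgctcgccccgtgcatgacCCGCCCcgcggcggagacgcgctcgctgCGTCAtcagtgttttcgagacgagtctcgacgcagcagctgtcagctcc
CLK4: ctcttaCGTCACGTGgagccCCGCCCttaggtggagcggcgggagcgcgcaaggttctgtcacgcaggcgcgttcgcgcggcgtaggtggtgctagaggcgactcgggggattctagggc
CDK12: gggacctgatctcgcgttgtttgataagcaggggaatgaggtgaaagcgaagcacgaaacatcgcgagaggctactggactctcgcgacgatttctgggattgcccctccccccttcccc
CDK13: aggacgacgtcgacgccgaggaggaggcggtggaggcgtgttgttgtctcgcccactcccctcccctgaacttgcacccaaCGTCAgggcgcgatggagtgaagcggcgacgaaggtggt

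The searched motifs were TGACG (the core of cyclic AMP response elements, CRE), the E-box CACGTG, the GC box GGGCGG, the CCAAT box, and the ETS site CCGGAAG. The CLK1 and CLK4 stretches both hold the CRE core and the GC box, and in CLK4 the E-box overlaps the CRE core. The CDK13 stretch holds the CRE core, and the CDK12 stretch holds no match to these letters. Over the 250 bases before each start, 21.2% of 35116 promoter windows held the CRE core, against 8 of the 21 windows of the 10 kinase genes, some of which overlap. The GC box was in 42.6% of all windows and in 12 of the 21, and the E-box in 6.34% and in 3. The CCAAT box was in 32.0% of all windows and in 4 of the 21, and the ETS site in 8.52% and in 1. A match describes these letters and no binding was measured.

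The knock-down comparison asks which of the kinase transcripts differ when BCLAF1 is depleted. SRPK2, CLK1 and CDK12 fell, to 75.6%, 78.5% and 87.5% of their shCONTROL mean CPM, and CLK3 and DYRK1A rose, to 116% each. CLK2, CLK4, SRPK1, PRPF4B and CDK13 did not pass the test. Thus 2 of 10 were higher and 3 of 10 lower at an adjusted p under 0.05, against 15.5% higher and 16.9% lower among all 16961 genes tested. The median log2 fold change of the 10 genes was -0.032, beside 0.017 over all genes tested. No member reached a log2 fold change of 1 in either direction.

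**Figure D1:**
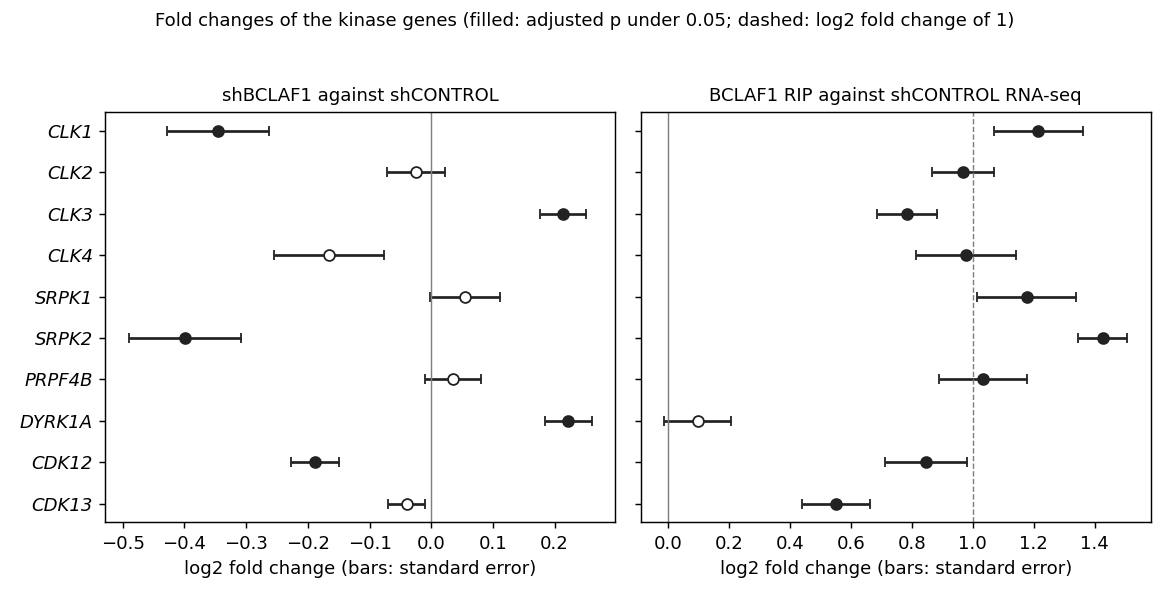
Log2 fold changes of the 10 kinase genes with their standard errors (x axis), for the knock-down and for the RIP against shCONTROL RNA-seq, filled where the edgeR adjusted p was under 0.05 and with the dashed line at a log2 fold change of 1. Knock-down values lie between -0.40 and 0.22, and 4 of the RIP values lie beyond the line.

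Among the CLK kinases, CLK1 (ENSG00000013441) measured 63.0, 74.8 and 62.1 CPM in shCONTROL and 54.0, 52.6 and 50.3 CPM in shBCLAF1. Every shBCLAF1 library lay under every shCONTROL library. The log2 fold change was -0.34 (SE 0.083, edgeR adjusted p 0.0224). The call was lost when any shBCLAF1 replicate was left out, with edgeR adjusted p values of 0.0534, 0.0667 and 0.0655 without replicates 1, 2 and 3. CLK4 (ENSG00000113240), the closest relative of CLK1, measured 33.7, 36.3 and 30.7 CPM in shCONTROL and 32.0, 30.1 and 27.4 CPM in shBCLAF1. The CLK4 groups overlapped, and its log2 fold change of -0.17 (SE 0.089) had an edgeR adjusted p of 0.215.

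CLK3 (ENSG00000179335) rose. It measured 76.3, 77.0 and 77.2 CPM in shCONTROL and 86.2, 89.7 and 90.6 CPM in shBCLAF1, and the groups did not overlap. Its log2 fold change was 0.21 (SE 0.037, edgeR adjusted p 0.00682), and it passed in each of the 6 fits that left out 1 library. CLK2 (ENSG00000176444) lay between 60.7 and 65.7 CPM in shCONTROL and between 60.4 and 63.4 CPM in shBCLAF1, so its groups overlapped (log2 fold change -0.02, SE 0.047, edgeR adjusted p 0.74).

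SRPK2 and SRPK1 are the cytoplasmic SR protein kinases. SRPK2 (ENSG00000135250) measured 31.8, 31.9 and 30.5 CPM in shCONTROL and 26.9, 21.7 and 22.6 CPM in shBCLAF1. Its log2 fold change of -0.40 (SE 0.091, edgeR adjusted p 0.0187) was the lowest of the 10. The groups did not overlap, but the adjusted p was above 0.05 without shCONTROL replicate 1 (0.0591) or 2 (0.0526) and without shBCLAF1 replicate 2 (0.0589) or 3 (0.0528). SRPK1 (ENSG00000096063) measured 268, 237 and 253 CPM in shCONTROL and 268, 268 and 249 CPM in shBCLAF1, with overlapping groups (log2 fold change 0.06, SE 0.057, edgeR adjusted p 0.52).

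PRPF4B (ENSG00000112739), the kinase of spliceosome activation, lay between 192 and 199 CPM in shCONTROL and between 193 and 211 CPM in shBCLAF1 (log2 fold change 0.04, SE 0.045, edgeR adjusted p 0.612). DYRK1A (ENSG00000157540) measured 140.1, 139 and 135 CPM in shCONTROL and 166, 159.6 and 156 CPM in shBCLAF1. The DYRK1A groups did not overlap, and the log2 fold change of 0.22 (SE 0.038, edgeR adjusted p 0.00666) also passed in each of the 6 fits without 1 library. It was the highest of the 10.

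Of the kinases of the RNA polymerase II tail, CDK12 (ENSG00000167258) measured 201, 194 and 199 CPM in shCONTROL and 179, 175 and 167 CPM in shBCLAF1. All shBCLAF1 libraries lay under all shCONTROL libraries, with a log2 fold change of -0.19 (SE 0.039, edgeR adjusted p 0.0137). Without shCONTROL replicate 1 or 3 the adjusted p was 0.0512 or 0.0534. CDK13 (ENSG00000065883) measured 135.5, 136 and 136 CPM in shCONTROL and 132, 131 and 133 CPM in shBCLAF1. The CDK13 groups did not overlap, yet the log2 fold change was only -0.04 (SE 0.030) with an edgeR adjusted p of 0.378. Counted by overlap alone, 2 of the 10 genes were higher in every shBCLAF1 library and 4 were lower, against 24.2% and 25.1% of all genes tested.

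These calls depended on which libraries entered the fit. When all 9 libraries were fitted together, SRPK2 alone of the 5 kept its call, and the edgeR adjusted p became 0.121 for CLK1, 0.121 for CLK3, 0.163 for DYRK1A and 0.30 for CDK12, with log2 fold changes close to those above. Genes on a list for monocytes and neutrophils moved with the knock-down. Their summed level was 984 to 1135 CPM in shCONTROL and 3004 to 3335 CPM in shBCLAF1. Most of this was LYZ, at a mean of 729 CPM in shCONTROL and 2637 CPM in shBCLAF1. Of the 6 tested, 5 were higher, against 15.5% of all genes tested, ITGAM was not called, and CD14 and FCN1 were at 0 throughout. The part of this shift in the kinase values was not tested, and in bulk RNA fewer cells of a type and less RNA per cell cannot be told apart.

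**Figure D2:**
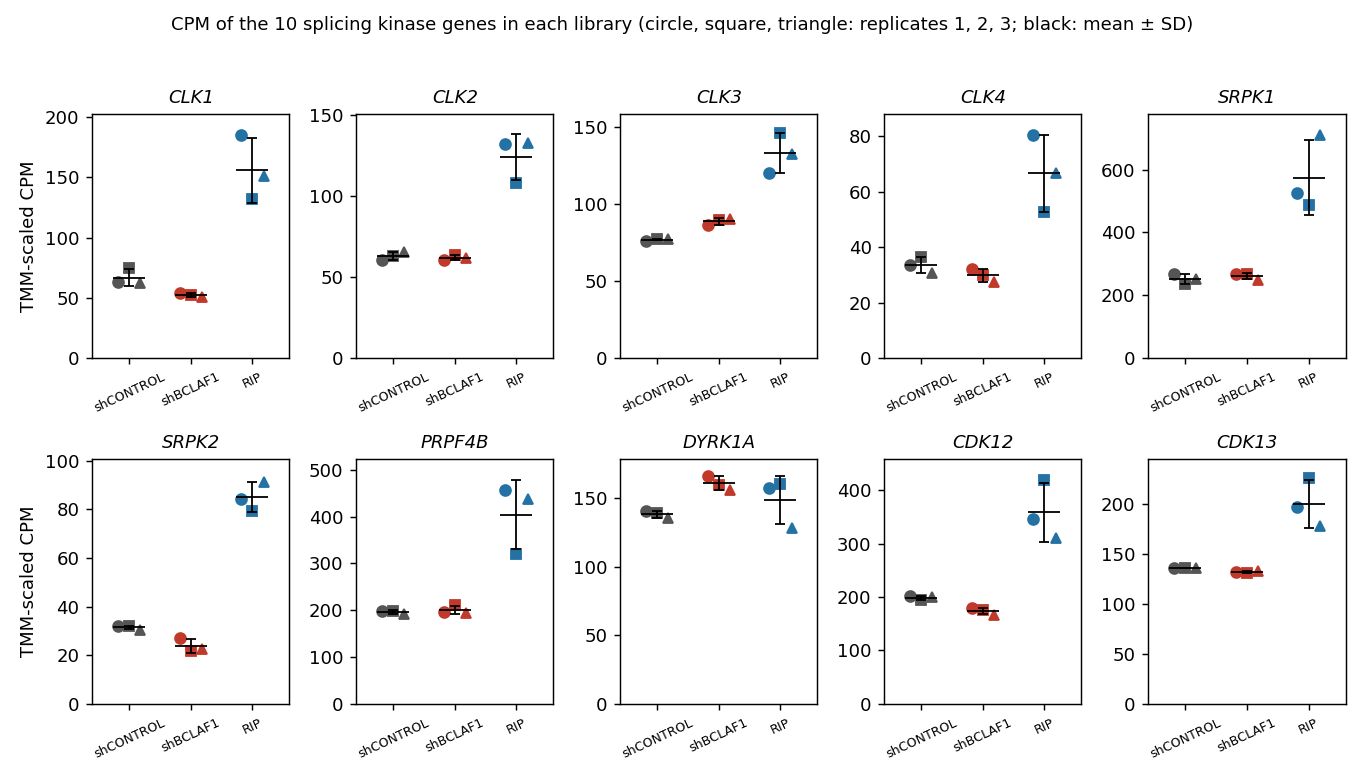
CPM of each kinase gene (y axes, 1 panel per gene, each with its own scale) in the 9 libraries by group (x axis), with points for libraries and bars for mean ± SD of 3. In the RIP group CLK1 runs from 132 to 185 CPM, above all RNA-seq libraries, while DYRK1A at 128 to 159.8 CPM overlaps shCONTROL.

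The RIP comparison asks which kinase transcripts were more abundant, relative to the other RNAs, in the BCLAF1 precipitate than in total RNA of shCONTROL cells. Of the 10 genes, 9 were higher at an adjusted p under 0.05 and only DYRK1A was not, against 24.6% of all 16727 genes tested higher and 24.7% lower at any size. SRPK2, CLK1, SRPK1 and PRPF4B also reached a log2 fold change of 1 and are called enriched, 4 of 10 against 11.0% of all genes. None was depleted, the call given to 13.5% of all genes. The median log2 fold change of the 10 genes was 0.97, beside -0.05 over all genes tested. In 9 of the 10 every RIP library lay above every shCONTROL library, which held for 31.9% of all genes. Summed over the 10 genes, the level was 1182 to 1208 CPM in shCONTROL, 1151 to 1202 CPM in shBCLAF1 and 2130 to 2338 CPM in the RIP.

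SRPK2 had the largest RIP value of the group. It measured 84.3, 79.3 and 91.3 CPM in the RIP, against at most 31.9 CPM in shCONTROL, a log2 fold change of 1.43 (SE 0.081, edgeR adjusted p 2.24e-04). Of all genes tested, 6.84% had a higher value. SRPK1 measured 525, 488 and 711 CPM in the RIP against 237 to 268 CPM, with a log2 fold change of 1.18 (SE 0.16, edgeR adjusted p 0.0020). RIP replicate 3 was the high library for SRPK1, and the groups did not overlap for either kinase.

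Among the CLK kinases, CLK1 measured 185, 132 and 151 CPM in the RIP, all above the shCONTROL maximum of 74.8 CPM. Its log2 fold change was 1.22 (SE 0.15, edgeR adjusted p 0.00121), and 9.70% of genes were higher. CLK4 measured 80.6, 52.6 and 66.7 CPM in the RIP, again with replicate 2 lowest and no overlap (log2 fold change 0.98, SE 0.16, edgeR adjusted p 0.0039). CLK2 measured 132, 108 and 133 CPM in the RIP, with a log2 fold change of 0.97 (SE 0.10, edgeR adjusted p 7.94e-04). CLK2 and CLK4 sat just under the size minimum, and both were past it without RIP replicate 2, at 1.05 and 1.12. CLK3 measured 120.2, 146 and 132 CPM, and its log2 fold change of 0.78 (SE 0.098, edgeR adjusted p 0.00142) was the lowest of the 4 CLK genes.

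PRPF4B measured 457, 319.6 and 437 CPM in the RIP, with RIP replicate 2 nearest to the shCONTROL range of 192 to 199 CPM. Its log2 fold change of 1.03 (SE 0.15, edgeR adjusted p 0.0021) lay just above the size minimum, and it was 0.95 without RIP replicate 1 and 0.98 without RIP replicate 3. CDK12 measured 345, 419 and 310.5 CPM in the RIP (log2 fold change 0.85, SE 0.13, edgeR adjusted p 0.00324). CDK13 measured 196, 226 and 178 CPM in the RIP (log2 fold change 0.55, SE 0.11, edgeR adjusted p 0.0079). Both cyclin K partners had groups that did not overlap, and neither reached the size minimum.

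DYRK1A was the exception. Its RIP libraries measured 157, 159.8 and 128 CPM and fell on both sides of the shCONTROL range of 135 to 140.1 CPM. The log2 fold change was 0.10 (SE 0.11, edgeR adjusted p 0.489), and 44.3% of all genes tested had a higher value.

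When the test asked for a log2 fold change beyond 1 in place of any change, SRPK2 alone of the 4 enriched genes passed. Genes of the mitochondrial genome (symbols starting with MT-) took 2.68% to 2.98% of the counts in shCONTROL and 0.226% to 0.377% in the RIP. The listed monocyte and neutrophil genes summed to 139.9 to 154.9 CPM in the RIP, against 984 to 1135 CPM in shCONTROL. Of the 6 tested, 3 (LYZ, ELANE and S100A9) were depleted, against 13.5% of all genes tested. The part of these shifts in the kinase values was not tested.

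RIP replicates spread more than RNA-seq replicates. For the 10 genes, the log2 distance between the highest and lowest library had a median of 0.059 (shCONTROL), 0.098 (shBCLAF1) and 0.39 (RIP), beside 0.12, 0.15 and 0.42 for 7382 genes with a mean of at least 800 counts. RIP replicate 2 was the lowest for CLK1, CLK2, CLK4, SRPK1, SRPK2 and PRPF4B. The same library was the highest for CLK3, DYRK1A, CDK12 and CDK13.

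The RIP values of protein-coding genes moved with the genomic span of the gene. With the genes tested split by span into 4 sets of like size, in the shortest set (up to 11.922 kb) 20.8% of genes were higher and 38.5% lower, while in the longest set (67.272 kb or more) 38.3% were higher and 16.4% lower. SRPK1, SRPK2, DYRK1A, CDK12 and CDK13 are in the longest set, where all but DYRK1A were higher, and CLK1 and CLK2, also higher, are in the shortest. In the knock-down the share of genes higher was 19.9% to 20.5% in all 4 sets. The share lower was 20.4%, 18.7%, 22.4% and 22.9% from the shortest set to the longest. The part of gene span in the kinase values was not tested.

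Ratios of counts between related genes within a library do not depend on scaling. The pairs and their orientation were chosen after the values were seen, so the ratios are described without a test, and each ratio also carries the lengths of its genes. CLK1 counts were 1.87, 2.06 and 2.02 times those of CLK4 in shCONTROL, 1.69, 1.75 and 1.83 times in shBCLAF1 and 2.29, 2.50 and 2.26 times in the RIP. CLK1 thus weighed less against CLK4 in every shBCLAF1 library than in any shCONTROL library, and more in every RIP library. The ratio of CDK12 to CDK13 was 1.49, 1.43 and 1.47 in shCONTROL, 1.36, 1.34 and 1.26 in shBCLAF1 and 1.76, 1.86 and 1.75 in the RIP, the same order of groups with no overlap.

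The ratio of CLK2 to CLK3 was 0.796, 0.818 and 0.851 in shCONTROL and 0.700, 0.706 and 0.685 in shBCLAF1. In the RIP it was 1.10, 0.738 and 1.00, with replicate 2 under the shCONTROL range and the other libraries above it. The ratio of SRPK2 to SRPK1 was 0.119, 0.135 and 0.121 in shCONTROL and 0.100, 0.081 and 0.091 in shBCLAF1. In the RIP, at 0.160, 0.162 and 0.128, it overlapped shCONTROL through replicate 3, where SRPK1 was high. All 4 ratios were lower in every shBCLAF1 library than in any shCONTROL library. The orientation was chosen after the values were seen, so this shared direction is not a result.

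**Figure D3:**
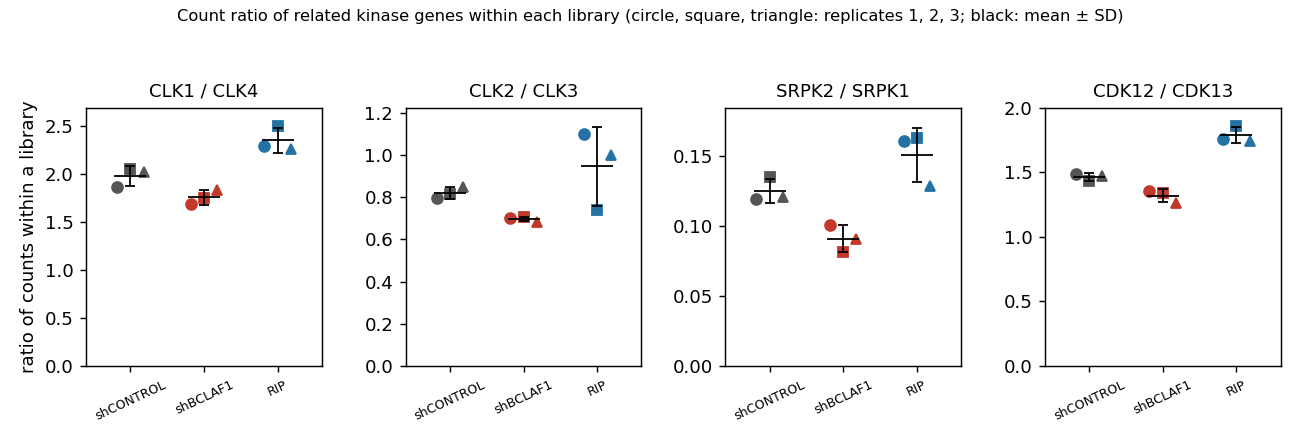
Ratio of estimated counts between related kinase genes within each library (y axes, 1 panel per pair), by group (x axis), with points for libraries and bars for mean ± SD of 3. The shBCLAF1 libraries lie under the shCONTROL libraries in all 4 panels, and the RIP libraries lie above them without overlap for CLK1 to CLK4 and CDK12 to CDK13. The pairs and their orientation were chosen after the values were seen.

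The substrates of the kinases, the SR proteins, moved in both directions after knock-down. Of 14 listed genes 13 were tested, SRSF12 being at 0 in all libraries, and 3 were higher and 4 lower, against 15.5% and 16.9% of all genes tested, with a median log2 fold change of -0.07. SRSF8 rose from 24.3 ± 1.29 to 33.5 ± 4.73 CPM (SD, n = 3 each; log2 fold change 0.47, SE 0.11, edgeR adjusted p 0.0208), and SRSF9 rose from 115 ± 9.22 to 150.5 ± 20.7 CPM (log2 fold change 0.39, SE 0.11, edgeR adjusted p 0.0369). SRSF10, a splicing repressor when dephosphorylated, fell from 238 ± 3.22 to 194 ± 10.6 CPM (log2 fold change -0.29, SE 0.049, edgeR adjusted p 0.00588). SRSF11 fell from 203 ± 12.3 to 173 ± 11.4 CPM (log2 fold change -0.23, SE 0.068, edgeR adjusted p 0.0432). Leaving out single libraries ended the call in 2 of 6 fits for SRSF8, 4 of 6 for SRSF9 and 5 of 6 for SRSF11, and in none for SRSF10. In the RIP 8 of the 13 were higher and 1 lower at any size, against 24.6% and 24.7% of all genes, with a median of 0.32, and SRSF9 alone was enriched, at 284 ± 62.4 CPM (log2 fold change 1.30, SE 0.18, edgeR adjusted p 0.00199).

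The carrier and phosphatase genes that act opposite or after the kinases numbered 6. After knock-down none was higher and 2 were lower, against 15.5% and 16.9% of all genes tested: PPP1CC, a catalytic subunit of protein phosphatase 1, by a log2 fold change of -0.26 (SE 0.055, edgeR adjusted p 0.0135), and PPP1R10, its nuclear targeting subunit PNUTS, by -0.29 (SE 0.042, edgeR adjusted p 0.00334). The nuclear importin TNPO3 had a log2 fold change of 0.12 (SE 0.046, edgeR adjusted p 0.104). PPP1CA, PPP1CB and PPP1R8 had log2 fold changes of -0.08, 0.06 and -0.12, with overlapping groups. In the RIP 1 of the 6 was enriched, against 11.0% of all genes tested, and 4 were higher at any size, against 24.6%. None was lower at any size, against 24.7%. The enriched gene was PPP1R10 (log2 fold change 1.24, SE 0.12, edgeR adjusted p 6.95e-04). TNPO3, PPP1CC and PPP1R8 were higher under the size minimum, at log2 fold changes of 0.54, 0.59 and 0.59, while PPP1CA stood at -0.06 and PPP1CB at 0.57 with groups that overlapped.

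Of the other kinases of the DYRK, HIPK and SRPK families, 9 in all, 5 passed the filter in the knock-down, and 3 were higher and 1 lower, against 15.5% and 16.9% of all genes tested. HIPK1 measured 111, 113 and 98.2 CPM in shCONTROL and 229, 222 and 185 CPM in shBCLAF1, a log2 fold change of 0.98 (SE 0.099, edgeR adjusted p 9.77e-04). HIPK2 (0.52, SE 0.10, edgeR adjusted p 0.0112) and HIPK3 (0.31, SE 0.064, edgeR adjusted p 0.0127) rose as well on the log2 scale. DYRK2 had a log2 fold change of -0.29 (SE 0.069, edgeR adjusted p 0.0218), lost in 4 of 6 fits without 1 library, and DYRK4 did not pass at -0.12. In the RIP none of the 7 genes tested reached the size minimum with a call, where 11.0% of all genes were enriched and 13.5% depleted. HIPK1 and HIPK3 had RIP log2 fold changes of -0.51 (edgeR adjusted p 0.0851) and -0.36 (edgeR adjusted p 0.0273), and HIPK2 stood at 135.5 CPM in RIP replicate 2 but at 46.2 and 25.8 CPM in the other RIP libraries. DYRK2 and DYRK4 were higher at 0.41 and 0.63. HIPK4 was at 0 in all 9 libraries, and SRPK3, DYRK1B and DYRK3 were at 0 in several libraries and at most 11.1 CPM in the others.

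Of 14 genes for other transcription kinases and their cyclins, 1 rose and 1 fell after knock-down, where 15.5% and 16.9% of all genes did. CCNK, cyclin K, the partner of CDK12 and CDK13, measured 26.8, 24.6 and 29.5 CPM in shCONTROL and 18.8, 20.5 and 15.8 CPM in shBCLAF1. Its log2 fold change was -0.55 (SE 0.12, edgeR adjusted p 0.0156), and it was lost without shCONTROL replicate 3 (0.0549). MNAT1, the assembly factor of the CDK7 complex, rose from 21.8 ± 0.776 to 27.6 ± 0.621 CPM (SD, n = 3 each; log2 fold change 0.34, SE 0.056, edgeR adjusted p 0.00569). In the RIP 3 of the 14 were enriched and none depleted, against 11.0% and 13.5% of all genes. At any size 8 were higher and 1 lower, against 24.6% and 24.7%, with a median log2 fold change of 0.70. CCNL1, cyclin L1, measured 399, 238 and 318.5 CPM in the RIP against 132 to 143 CPM in shCONTROL (log2 fold change 1.21, SE 0.19, edgeR adjusted p 0.00294). The others were MNAT1 (1.03) and CDK11A (1.14), whose near-identical copy CDK11B makes its counts uncertain and whose call was lost in 3 of 6 fits without 1 library. Cyclin K stood at 43.6, 51.6 and 41.3 CPM in the RIP, a log2 fold change of 0.75 (SE 0.13, edgeR adjusted p 0.00463).

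The partners of DYRK1A and the DREAM complex, which represses cell-cycle genes, comprised 11 genes, of which 1 rose and 2 fell after knock-down, near the 15.5% and 16.9% of all genes. TFDP1, the dimerization partner of E2F factors, rose by a log2 fold change of 0.40 (SE 0.039, edgeR adjusted p 9.05e-04). E2F5 and RBL1 (p107) had log2 fold changes of -0.62 (SE 0.12, edgeR adjusted p 0.00937) and -0.48 (SE 0.049, edgeR adjusted p 0.00106). In the RIP 1 of the 11 was enriched and 2 were depleted, against 11.0% and 13.5% of all genes. TFDP1 was enriched, from 179 ± 5.60 to 639 ± 92.7 CPM (SD, n = 3 each; log2 fold change 1.83, SE 0.13, edgeR adjusted p 2.96e-04), while LIN54 (-1.31, SE 0.25, edgeR adjusted p 0.0059) and E2F5 (-1.05, SE 0.14, edgeR adjusted p 0.00183) were depleted. The E2F5 value was under the size minimum without RIP replicate 3 (-0.95) and with the shBCLAF1 libraries added to the reference (-0.73).

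MAT2A, OGT and OGA are known, like CLK1 and CLK4, for regulated detained introns, and were listed with earlier results of these data known. All 3 fell after knock-down and were higher in the RIP at any size, where 16.9% of all genes were lower and 24.6% higher. CLK4 did not pass in the knock-down (log2 fold change -0.17, edgeR adjusted p 0.215) and was higher in the RIP under the size minimum (0.98). OGT, which adds N-acetylglucosamine to proteins, measured 337, 411 and 351.5 CPM in shCONTROL and 221, 254 and 235 CPM in shBCLAF1 (log2 fold change -0.63, SE 0.091, edgeR adjusted p 0.0035). OGA, the enzyme that removes it, had a log2 fold change of -0.30 (SE 0.056, edgeR adjusted p 0.00883). MAT2A, the enzyme making S-adenosylmethionine, had -0.17 (SE 0.044, edgeR adjusted p 0.0277), lost in 5 of 6 fits without 1 library. In the RIP, MAT2A was enriched at 1238, 823 and 1337 CPM against 378 to 395.5 CPM (log2 fold change 1.54, SE 0.19, edgeR adjusted p 0.00138), and OGT and OGA were at 0.87 and 0.69. The knock-down and the RIP share the shCONTROL libraries, so these values are given side by side and their relation is not read.

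**Figure D4:**
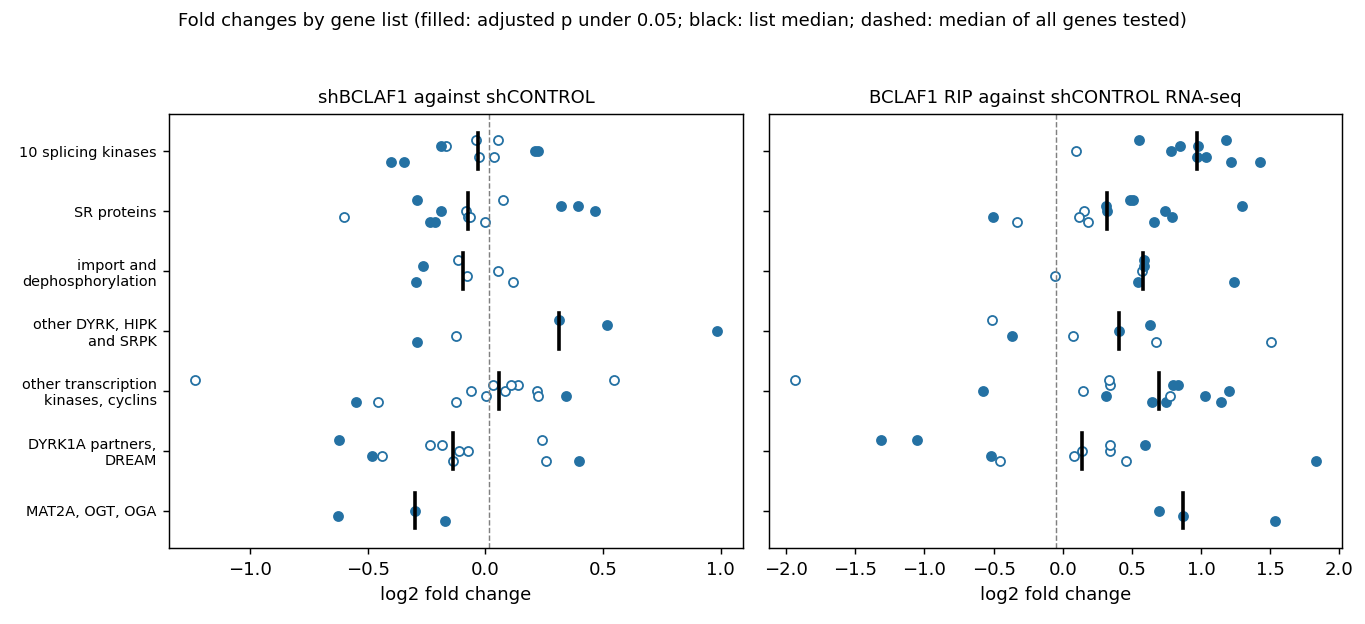
Log2 fold changes of the tested genes of each list (points) with list medians (bars), for the knock-down and for the RIP, beside the median of all genes tested (dashed). The 10 kinase genes have a median of 0.97 in the RIP, with all genes tested at -0.05.

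Copies and neighbouring transcripts could share reads with the kinase genes. The pseudogene CLK2P1 measured 2.25 ± 0.294 CPM in shCONTROL and 4.59 ± 1.03 CPM in the RIP (SD, n = 3 each), small beside CLK2. Its RIP log2 fold change was 1.00 (SE 0.24, edgeR adjusted p 0.0141), a call lost in 7 of 16 alternatives. PRPF4BP1 was at 0 in shCONTROL and at most 0.763 CPM in the RIP (log2 fold change 3.43, edgeR adjusted p 0.00322), with at most 22 counts. CLK3P2 was at 0 throughout. With CDK13-DT, all 3 of these transcripts tested in the RIP were enriched, against 11.0% of all genes tested. CDK13-DT, transcribed away from the CDK13 promoter, measured 1.39, 1.18 and 1.33 CPM in shCONTROL and 5.82, 4.74 and 8.88 CPM in the RIP (log2 fold change 2.25, SE 0.28, edgeR adjusted p 0.00136), a larger RIP value than that of CDK13. Among nuclear noncoding RNAs, MALAT1 had a RIP log2 fold change of 0.07 (SE 0.22, edgeR adjusted p 0.804) and NEAT1 one of -0.42 (SE 0.32, edgeR adjusted p 0.319), both with overlapping groups. MALAT1 fell after knock-down by a log2 fold change of -0.91 (SE 0.14, edgeR adjusted p 0.0040).

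The genes most like CLK1 across the 9 libraries were found by the root mean square difference of log2 CPM, each gene centred on its own mean, over 11846 genes. They were ZMYM2 (0.114), PCMTD2 (0.115), SETDB2 (0.115), CPSF6 (0.121) and DEPDC1B (0.121). Among the kinases, CLK4 (0.182) and SRPK2 (0.186) were nearest to CLK1 and DYRK1A (0.715) farthest. Nearest to the mean profile of the 10 kinase genes were DIAPH2 (0.036), CKAP2 (0.038), PPP4R3B (0.042), EPB41L3 (0.048) and MPHOSPH9 (0.056). CLK2 (0.075) was closest to that mean among the members, with DYRK1A (0.473) and SRPK2 (0.365) farthest from it. These distances are descriptions over libraries that share 3 groups, and carry no test.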

How the data were processed

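RNA was measured in 9 MOLM-13 libraries in 3 groups of 3. The authors deposited a table of estimated counts per gene, with no normalization, made from stranded, ribosomal RNA-depleted total RNA per the labels' protocols. The values were whole, and no rounding was done. STAR 2.7.11b, StringTie 2.2.3 and hg38 are named, without roles, in the submitters' processing notes. Counts of 1 were rarer than counts of 2, as when counts derive from coverage, so a 0 may hide reads. The 1 entry naming no gene (0% to 3.75% of counts) was left out. The floor of 3 counts equalled 0.0819 to 0.116 CPM, a limit of counting alone, as PCR copies could not be separated.

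Each comparison was fitted apart on its 6 libraries in edgeR 4.0.16 (R 4.3.3): default low-count filter, TMM, prior count 2, quasi-likelihood F-test on group, and Benjamini-Hochberg adjustment over all genes tested (threshold 0.05). RIP calls of enriched or depleted also needed a log2 fold change of 1 or more in size. Standard errors came from the coefficient and its F statistic. The fits were checked on simulated data. Of simulated log2 changes of 1 in size, 69% passed the adjusted p threshold in the knock-down and 33% in the RIP, with no minimum size asked. The simulation changed 200 genes per comparison, while the real knock-down called 2625 higher and 2859 lower. Its changed genes could also have far fewer counts than the kinase genes. These shares therefore do not measure how often a change of the kinase genes would be called. A gene that was not called may still differ. Alternatives used DESeq2 1.42.0, limma 3.58.1, other scalings and filters, and fits leaving out each library.

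The kinase genes and gene lists were chosen with earlier results of these data known. All kinase genes, BCLAF1, and their pseudogenes and divergent transcripts (matched by symbol) were named. Lists of up to 10 genes were named in full, and longer lists by up to 2 called genes at each end with a mean of at least 50 counts. Promoters, spans and positions are from RefSeq (GRCh38.p14).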

Additional observations from a re-analysis of the deposited data

How the results depend on the processing

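Over the alternatives to the knock-down fit, the 2 kinase genes higher and 3 lower became 0 and 1 in a fit of all 9 libraries, and 0 and 0 with a minimum log2 fold change of 1. Leaving out 1 library at a time gave 2 higher each time and 1 to 2 lower. Over all genes, the fit of all 9 libraries called 1129 higher and 1318 lower, against 2625 and 2859, and in it 11 of the named genes of the knock-down lists also missed the threshold. The cause was not tested. The 4 enriched kinase genes of the RIP became 1 when tested against a log2 fold change of 1, by the stricter question, and 9 with no minimum size. They were 3 to 6 with 1 library left out, and no kinase gene was depleted under any alternative run. PRPF4B also fell under the minimum with total counts (0.93). CLK4 reached 1.07 when the shBCLAF1 libraries were added to the reference and 1.03 without shCONTROL replicate 2.

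Direction turned only in genes that passed no test in that comparison. With total counts in place of TMM, which moved the median of all genes by 0.05 in the knock-down and -0.12 in the RIP, the knock-down values were 0.027 for CLK2, 0.011 for CDK13 and 0.017 for CLK2P1, and the RIP values -0.019 for DYRK1A and -0.057 for MALAT1. With the shBCLAF1 libraries added to the reference, DYRK1A was at -0.0043. With 1 library left out, knock-down values ran from -0.044 to 0.012 for CLK2, -0.0062 to 0.062 for PRPF4B, -0.15 to 0.32 for PPP1CB, -0.25 to 0.032 for DYRK4 and -0.17 to 0.058 for CLK2P1. RIP values ran from -0.16 to 0.026 for PPP1CA, -0.28 to 1.07 for HIPK2 (the lowest without RIP replicate 2), -0.17 to 0.19 for MALAT1 and -1.26 to 0.64 for DYRK1B. DYRK1B, at 0 in several libraries, was also at -0.065 with limma-voom and -0.078 with the replicate block. The cause was not tested.

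With the replicate block, 2271 genes were higher and 2538 lower after knock-down, and 1584 were enriched and 1865 depleted in the RIP, against 1846 and 2253 without it. All kinase calls were the same with the block, 2 higher, 3 lower and 4 enriched, while the knock-down call of CCNK was lost (edgeR adjusted p 0.0618). Deviations of same-numbered libraries had correlations of 0.020, 0.056 and 0.0041 in the knock-down and -0.021, 0.0097 and -0.0021 in the RIP. Not every library correlated best with its own number. With 3 libraries per group, these correlations cannot decide whether same-numbered samples shared a culture or day, which the labels do not state.

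The precision rests on 3 libraries per group. The kinase genes had 823 to 20486 counts in every library. SRPK3 and DYRK1B, at 0 in some libraries, varied widely between replicates, and SRPK3 was called in the RIP only with the shBCLAF1 libraries added to the reference (4.01, edgeR adjusted p 0.0354).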
